A study of Mus musculus with 21 samples.

Results

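The 10 genes described here encode proteins that detect, relay or remove nucleic acid inside the cell: Ddx58, Ifih1, Dhx58, Mavs, Zbp1, Aim2, Ifi204, Samhd1, Trex1 and Adar. They were given by name and matched on the gene symbol, among 50645 genes read from one table and 50644 from the other, and all 10 passed the filter on low values in both tables. The data are RNA-seq of macrophages grown from the bone marrow of C57Bl6/J mice in 7 groups of 3 libraries. Every culture was grown in RPMI-1640 with serum and L929 cell supernatant, a source of macrophage growth factor, until day 7, and the donors, aged 24 weeks by the labels, had eaten standard chow or a Western diet (much fat, sugar and cholesterol) over 24 weeks. The fatty acid table holds 4 groups, all from chow-fed donors: untreated cells, cells given 100 ng/ml of E. coli LPS for 24 h, cells given 10 mM palmitic and oleic acid (1:3) over the first 4 days and later the same LPS, and cells given the fatty acid together with 200 nM TAK242 and later the same LPS. LPS, a bacterial cell wall lipid, is sensed by Toll-like receptor TLR4, and TAK242 is an inhibitor of TLR4 signalling. The Western diet table holds untreated chow libraries (replicates 4 to 6), libraries labelled Western diet control and libraries labelled Western diet with LPS. No group received fatty acid without later LPS or TAK242 without fatty acid. The labels do not say whether the replicates came from separate mice, so the tests measure the spread between these cultures, which may be technical.

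Cells read foreign or misplaced nucleic acid by a small set of receptors. RIG-I (Ddx58) and MDA5 (Ifih1) bind viral RNA in the cytosol and act through the mitochondrial adaptor MAVS to switch on type I interferon, and LGP2 (Dhx58) is a related helicase that tunes them. ZBP1 binds nucleic acid in the Z form and can start necroptosis, AIM2 assembles an inflammasome on DNA, and IFI204 is a mouse DNA sensor of the same HIN-200 family. SAMHD1 breaks down deoxynucleotides, TREX1 digests cytosolic DNA, and ADAR1 (Adar) edits double-stranded RNA, so these enzymes limit the supply of self ligands. In macrophages, interferon made after TLR4 signalling is known to induce many of these genes.

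The deposited values carry no stated unit. They add up to between 321532 and 386023 per library, with 8803 to 10145 genes at 1 or more, and the read depth behind them is unknown. Levels are therefore compared between libraries for 1 gene and not between genes. Ccl5, a chemokine that LPS induces, lay between 0.420 and 0.645 in the 3 untreated libraries of the fatty acid table and between 3102 and 7141 in its 9 LPS libraries. In the Western diet table Ccl5 went against the LPS labels of 4 libraries: it was 7846 and 10973 in the libraries labelled Western diet control 1 and 3, 13.7 in control 2, 0.463 and 10.5 in the libraries labelled Western diet with LPS 1 and 2, and 6905 in LPS 3. Acod1, an LPS-induced enzyme gene, was 382 and 331 in the same 2 control libraries and 0.490 and 0.766 in the same 2 LPS libraries. Directions in that table are by label only. Of 8 macrophage markers, 7 were at 1 or more in every library of every group. T cell markers summed to at most 0.160, B cell markers to at most 3.12 and dendritic cell markers to at most 3.75 in any library.

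The promoter windows are shown for members whose RefSeq start region was matched (GRCm38.p6, 250 bases before to 50 after the start), because most of the set responded to LPS and the letters around the start sites can be set beside that response. Of the 10 genes, 7 matched, with 10 windows, and no window was found for Dhx58, Zbp1 and Ifi204. On both strands, 4 motifs were searched: the interferon-stimulated response element core GAAANNGAAA, its shorter form GAAANNGAA (which every longer match also contains), the interferon-gamma activated site TTCNNNGAA, and an NF-kB site. Among all 32851 windows of the same length these were found in 3.44%, 8.56%, 8.30% and 8.46%. Ddx58 and Ifih1 each hold the longer core just past the start, Ddx58 on the minus strand of the gene at positions 3 to 12 and Ifih1 on the plus strand at 33 to 42, counted from the first transcribed base. Samhd1 holds the interferon-gamma activated site at -235 to -227, and the third start of Adar holds that site at 23 to 31 beside the shorter core at 34 to 42. Ifih1 also has the shorter core at -112 to -104, and the same Adar window has it at -249 to -241. Trex1 holds the NF-kB letters at -246 to -237 of its first window. Capitals below mark those matches, and the stretches of Mavs and Aim2, which fell after LPS, hold none of the 4 motifs. A match is a description of letters and not evidence of binding.
Ddx58 (chr4:40239804-40239833, minus strand): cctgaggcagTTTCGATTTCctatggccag
Ifih1 (chr2:62646206-62646235, minus strand): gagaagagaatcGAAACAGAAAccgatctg
Adar (chr3:89730735-89730764, plus strand): gccttTTCAAGGAAacGAAAGTGAActctg
Samhd1 (chr2:157135313-157135342, minus strand): aacaccaccctTTCGGAGAAacacaagggc
Trex1 (chr9:109059944-109059973, minus strand): gcatGGGGGCCTCCaagcccccacgctgtc
Mavs (chr2:131233923-131234022, plus strand): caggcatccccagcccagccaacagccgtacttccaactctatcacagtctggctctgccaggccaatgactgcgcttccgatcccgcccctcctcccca
Aim2 (chr1:173420464-173420563, plus strand): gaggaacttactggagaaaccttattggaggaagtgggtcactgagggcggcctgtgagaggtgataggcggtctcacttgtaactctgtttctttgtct

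LPS alone raised 6 of the 10 genes and lowered 2 in chow-fed macrophages, tested with limma on log2(value + 1) with Benjamini-Hochberg adjustment over 10476 genes. Ddx58, Ifih1, Dhx58, Zbp1, Ifi204 and Samhd1 rose, Mavs and Aim2 fell, and Trex1 and Adar did not pass the threshold of 0.05. Across all genes tested, 13.8% were called higher and 47.9% lower, so the members' share of higher calls stood above the share of all genes and their share of lower calls below it. The median log2 change was 2.25 over the 10 members and -0.31 over all genes. Scaling the libraries to a common median ratio moved that median of all genes to 0.04 and gave 2977 higher and 2705 lower calls in place of 1444 and 5019. Under that scaling 7 members were called, without Aim2. The 1 added before taking the log makes the change of genes with low values look smaller.

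The cytosolic RNA helicases rose together. Ddx58 (chromosome 4, 40203773 to 40239828, minus strand) was at 5.84, 6.28 and 6.71 in the untreated libraries and 42.3, 72.7 and 78.8 after LPS. Its mean was 10.3 times higher, a log2 change of 3.13 ± 0.19 (SE, n = 3 and 3, adjusted p = 1.64e-07). Ifih1 (chromosome 2, 62595798 to 62646255, minus strand) went from 2.66, 3.69 and 3.46 to 19.5, 23.6 and 26.0, a log2 change of 2.49 ± 0.18 (limma adjusted p = 6.19e-07). All LPS libraries lay above all untreated ones for both helicases, and the first LPS replicate was the lowest of its group for both. Dhx58 (chromosome 11, 100694884 to 100704271, minus strand), the helicase that tunes the other two, moved from 8.03, 6.11 and 7.02 to 34.0, 56.6 and 57.0, a log2 change of 2.61 ± 0.17 (limma adjusted p = 3.16e-07). The opposite strand of Dhx58 carries Dhx58os, listed between 0.307 and 3.42 in this table, and the source of reads in the shared stretch cannot be told apart without strand.

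Mavs, the adaptor that both sensing helicases need, moved the other way. Mavs (chromosome 2, 131234063 to 131248025, plus strand) was at 9.17, 9.38 and 9.75 in the untreated libraries and 5.73, 6.37 and 6.30 after LPS, 0.650 times the untreated mean. The groups did not overlap, and the log2 change was -0.55 ± 0.09 (limma adjusted p = 0.000209). With the median-ratio scaling it was -0.18, still past the threshold with a limma adjusted p of 0.0448.

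Zbp1, the Z-form nucleic acid sensor, had the largest change of the 10. Zbp1 (chromosome 2, 173206612 to 173218923, minus strand) was at 1.57, 1.13 and 1.44 in the untreated libraries and 99.8, 160 and 176 after LPS. The ratio of the means was 105 and the log2 change 5.90 ± 0.18 (limma adjusted p = 7.67e-10).

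The 2 DNA sensors of the HIN-200 family split in direction. Ifi204 (chromosome 1, 173747293 to 173766943, minus strand) rose from 16.3, 20.0 and 21.4 to 88.8, 155 and 154, a log2 change of 2.69 ± 0.24 (limma adjusted p = 3.49e-06). Its family holds close copies on the same chromosome, and how reads shared between copies were counted is not given in the sources used here. Aim2 (chromosome 1, 173350879 to 173466040, plus strand), the inflammasome sensor, was at 9.90, 14.9 and 10.0 in the untreated libraries and 7.68, 8.42 and 7.39 after LPS. These groups did not overlap, and the log2 change was -0.49 ± 0.14 (limma adjusted p = 0.0114). Without untreated replicate 2, at 14.9, it was -0.31 (limma adjusted p = 0.0310). The fall of Aim2 was lost with the median-ratio scaling, at -0.12 (limma adjusted p = 0.478). Cadm3, which overlaps Aim2 on the opposite strand, was listed at 0 in every library.

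Among the enzymes that limit self ligands, Samhd1 (chromosome 2, 157097533 to 157135265, minus strand) rose. It was at 41.1, 41.1 and 45.5 in the untreated libraries and 72.3, 147 and 177 after LPS, a log2 change of 1.52 ± 0.26 (limma adjusted p = 0.000391). Its highest LPS library was 2.45 times its lowest, a wider spread than the 1.11 times of the untreated group. The first LPS replicate was the lowest of its group for 9 of the 10 members.

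Trex1 and Adar were set apart by their spread. Trex1, the cytosolic DNA exonuclease (chromosome 9, 109057933 to 109059734, minus strand), was at 1.58 and 1.83 in the first and second untreated libraries and 56.4 in the third. After LPS it was at 10.6 and 14.7 in the first and second libraries and 149 in the third. One library in each group therefore lay far above the others, and the log2 change of 2.01 ± 1.15 was not called (limma adjusted p = 0.153). Without untreated replicate 3 it was 3.48 and passed (limma adjusted p = 0.00605). Gaps between the highest and lowest library were counted over tested genes at 1 or more in all 3 libraries of the group. A gap of over 10 times was found for 0.0726% of 9639 such genes in the untreated group and 0.342% of 8768 in the LPS group. Trex1 was the sole member past it in each. A longer gene model that overlaps Trex1 on the same strand (109057933 to 109074120) lay between 2.76 and 6.46 in all 12 libraries, and its neighbour Atrip between 2.12 and 4.01, so neither shared the jump. What sets Trex1 apart in those libraries was not tested.

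Adar, the RNA editing enzyme (chromosome 3, 89715022 to 89753446, plus strand), was at 6.25, 9.15 and 2.46 in the untreated libraries and 6.29, 7.10 and 17.3 after LPS. The groups overlapped, and the log2 change of 0.69 ± 0.53 was not called (limma adjusted p = 0.276). Chrnb2, on the opposite strand across the end of Adar, lay between 0.520 and 2.56 in this table.

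**Figure D1:**
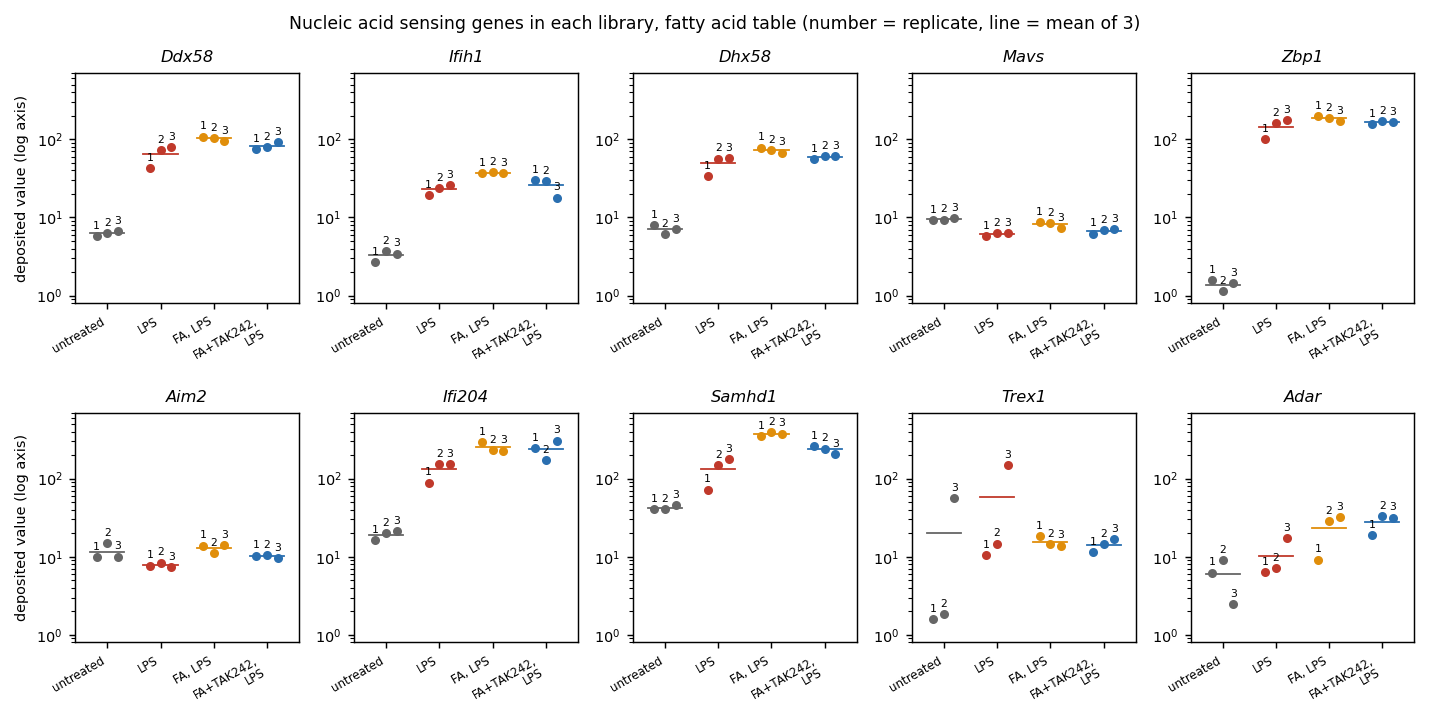
Deposited value of each of the 10 genes (log axis) in the 12 libraries of the fatty acid table, by group, with points numbered by replicate and a line at the mean of 3. Ddx58, Ifih1, Dhx58, Zbp1, Ifi204 and Samhd1 stand higher in every LPS library than in every untreated one, and Trex1 shows 56.4 and 149 in the third library of the untreated and LPS groups.

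Fatty acid pretreatment before LPS gave higher levels than LPS alone for 7 of the 10 genes, where 21.8% of all genes were called higher and 15.3% lower. Ddx58, Ifih1, Dhx58, Mavs, Aim2, Ifi204 and Samhd1 rose, none fell, and Zbp1, Trex1 and Adar were not called. The median log2 change was 0.67 over the members and 0.06 over all genes. Samhd1 moved most, with 349.8, 396 and 376 after fatty acid and LPS, against 72.3, 147 and 177 after LPS alone. The groups lay far apart, the means differed 2.83 times, and the log2 change was 1.59 ± 0.26 (limma adjusted p = 0.0015). Ifi204 reached 292, 232 and 228, all above its 3 LPS libraries, a log2 change of 0.95 ± 0.24 (limma adjusted p = 0.0121).

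The RNA helicases showed smaller steps. Ddx58 was at 108, 104 and 95.7 after fatty acid and LPS, above the 78.8 of the highest LPS library, a log2 change of 0.71 ± 0.19 (limma adjusted p = 0.0152). Ifih1 was at 37.1, 37.9 and 36.8, the tightest group of this gene, a log2 change of 0.68 ± 0.18 (limma adjusted p = 0.0145). Dhx58 was at 78.3, 72.4 and 67.5, a log2 change of 0.59 ± 0.17 (limma adjusted p = 0.0225). The size of 2 of these steps rested on LPS replicate 1, the low library of its group: without it the change of Ddx58 was 0.43 and that of Dhx58 0.35, both still called (limma adjusted p = 0.0116 and 0.0305). The calls for Dhx58 and Ddx58 were the least firm. Dhx58 missed the threshold with no filter on low values, in a fit of the 6 libraries alone and without the first or second fatty acid replicate (limma adjusted p from 0.0571 to 0.0806), and Ddx58 missed it in the fit of 6 libraries (limma adjusted p = 0.0674).

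Mavs and Aim2, which had fallen after LPS, were higher with the pretreatment. The same LPS libraries are part of both comparisons, so low values in them enter both. The fall of Aim2 was not called with the median-ratio scaling. Mavs was at 8.69, 8.53 and 7.31, above every LPS library, a log2 change of 0.36 ± 0.09 (limma adjusted p = 0.00815). Aim2 was at 13.9, 11.2 and 14.1, a log2 change of 0.67 ± 0.14 (limma adjusted p = 0.00522). Zbp1 was at 196, 187 and 171, of which the lowest lay within the LPS group, and its log2 change of 0.39 ± 0.18 was not called (limma adjusted p = 0.107). Without LPS replicate 3 the change of Zbp1 was 0.54 and passed (limma adjusted p = 0.0300).

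Trex1 was at 18.3, 14.4 and 13.9 after fatty acid and LPS, close together and inside the range of the LPS group, with a log2 change of -0.87 ± 1.15 (limma adjusted p = 0.58). That sign rested on LPS replicate 3, without which it was 0.29. Adar was at 9.21, 28.7 and 31.8, with 2 libraries above every LPS library and 1 among them, a log2 change of 1.07 ± 0.53 (limma adjusted p = 0.134). Without the low first replicate Adar passed, at 1.60 (limma adjusted p = 0.0329).

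TAK242 given with the fatty acid was followed by no member past the threshold against fatty acid and LPS, where 4.69% of all genes were called in either direction. At an unadjusted limma p under 0.05, 4 members were lower (Ifih1, Mavs, Aim2 and Samhd1), as were 10.3% of all genes. Samhd1 was at 260.3, 241 and 206 with TAK242, below all 3 fatty acid libraries, a log2 change of -0.67 ± 0.26 (limma adjusted p = 0.156). In a fit of those 6 libraries alone it passed, with a limma adjusted p of 0.0216. Ifih1 was at 29.9, 29.3 and 17.9, also below all fatty acid libraries, a log2 change of -0.55 ± 0.18 (limma adjusted p = 0.107). Ddx58 at 74.5, 79.8 and 92.4, Dhx58 at 55.8, 60.9 and 60.7, Mavs at 6.23, 6.88 and 7.09 and Aim2 at 10.3, 10.4 and 9.65 also lay below their fatty acid groups without overlap, which makes 6 members, where 18.7% of all genes lay so. Zbp1 at 155, 172 and 165, Ifi204 at 248, 174 and 305, Trex1 at 11.3, 14.5 and 16.6 and Adar at 18.9, 32.9 and 31.7 overlapped them. The standard errors of these log2 changes ran from 0.09 for Mavs to 1.15 for Trex1, and an adjusted p above the threshold does not show that the groups were alike.

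**Figure D2:**
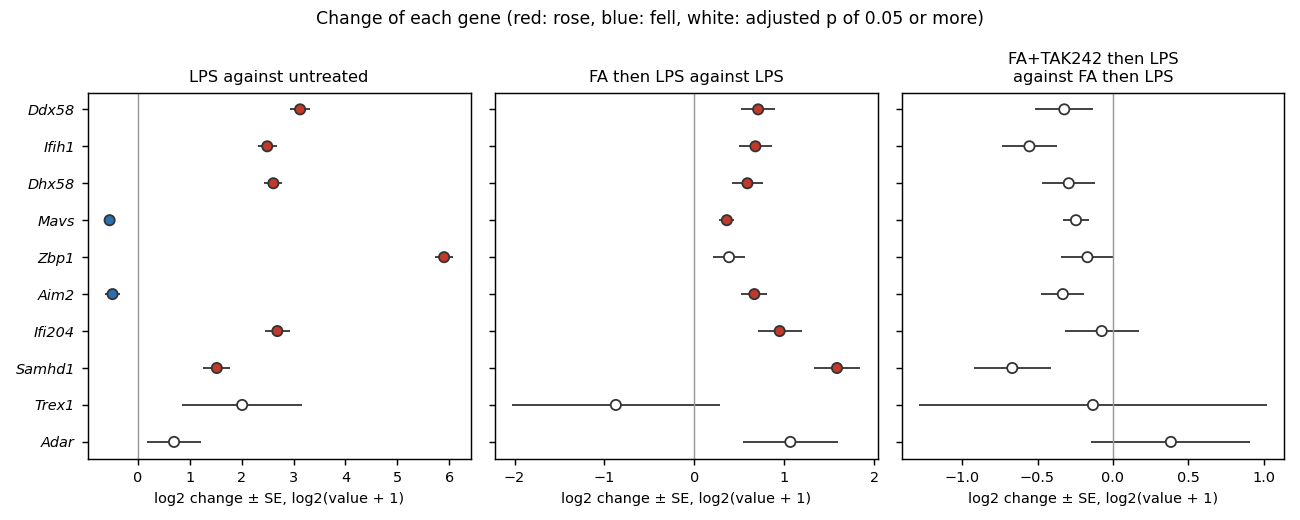
Log2 change with its standard error for each gene in 3 comparisons of the fatty acid table, 3 libraries against 3, each panel with its own horizontal scale. Red points rose, blue points fell and white points had an adjusted p of 0.05 or more: 6 rose and 2 fell with LPS, 7 rose with fatty acid before LPS, and none passed with TAK242.

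Set against LPS alone, fatty acid with TAK242 before LPS again gave no member past the threshold, where 5.89% of all genes were called in either direction, and 4 members had an unadjusted limma p under 0.05 (Aim2, Ifi204, Samhd1 and Adar, all higher), where 19.5% of all genes were higher at that level. Ifi204 and Samhd1 came nearest, with log2 changes of 0.87 ± 0.24 and 0.92 ± 0.26 (limma adjusted p = 0.0578 and 0.0579). Without LPS replicate 3, Ifi204, Samhd1 and Adar passed, where 1199 of 10476 genes were called higher and 585 lower. Without TAK242 replicate 2 Ifi204 passed, where 133 genes were called higher and 135 lower.

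Against untreated cells, which also serve as the control of the LPS comparison, fatty acid then LPS raised 7 members (15.2% of all genes were called higher), and fatty acid with TAK242 then LPS raised the same 7 (14.1%) and lowered Mavs (43.9% of all genes were called lower). The 7 were Ddx58, Ifih1, Dhx58, Zbp1, Ifi204, Samhd1 and Adar. Zbp1 had log2 changes of 6.29 ± 0.18 and 6.12 ± 0.18, Samhd1 3.10 ± 0.26 and 2.44 ± 0.26. Adar, uncalled for LPS alone, had 1.76 ± 0.53 and 2.15 ± 0.53 (limma adjusted p = 0.0136 and 0.00487). The first of the Adar values missed the threshold without untreated replicate 3 or without fatty acid replicate 2 or 3 (limma adjusted p from 0.0517 to 0.0582). Aim2 had 0.17 ± 0.14 and -0.16 ± 0.14 and was called in neither (limma adjusted p = 0.315 and 0.364), and with the median-ratio scaling the first was 0.50 and passed (limma adjusted p = 0.00803) and the second turned to 0.16. Mavs had -0.19 ± 0.09 and -0.43 ± 0.09 (limma adjusted p = 0.0779 and 0.00119), and with the scaling these were 0.12 and -0.13, neither called. Trex1 had 1.13 ± 1.15 and 1.00 ± 1.15, not called, and without untreated replicate 3 these were 2.60 and 2.47, both past the threshold (limma adjusted p = 0.0252 and 0.0331).

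The genes around the members were described in 4 lists, whose genes were chosen with results of these data known. Of 19 genes of the MAVS route and the type I interferon loop, 17 passed the filter on low values. After LPS, 11 of them rose and 2 fell, with a median log2 change of 0.72. With LPS, 13.8% of all genes were called higher and 47.9% lower. Irf7, the transcription factor that amplifies interferon, went from 1.04 ± 0.129 (SD, n = 3) to 255 ± 111, a log2 change of 6.87. Irf9, a subunit of the factor that carries the interferon signal to genes, went from 6.99 ± 0.724 to 18.5 ± 1.26, and Ikbke, a kinase below MAVS, from 34.1 ± 1.91 to 96.8 ± 9.95. Traf6 and Pcbp2, a ligase adaptor and a binder of MAVS named here after their values were seen, fell by 0.31 and 0.38, near the median of all genes. With the median-ratio scaling their changes were -0.04 and 0.03, neither called, and the list had 13 higher and 0 lower. Ifnb1, which encodes interferon beta, was listed at 0 in all 12 libraries of the table. With fatty acid before LPS, 7 rose and 1 fell. Of all genes, 21.8% were called higher and 15.3% lower there, and these shares stand beside the next lists too. Ifnar1, the interferon receptor chain, was at 57.1 ± 3.90 against 41.0 ± 1.29, and Tbk1, the kinase that activates IRF3, at 61.6 ± 2.93 against 44.1 ± 5.52. Traf3 fell by 0.60 (limma adjusted p = 0.0492).

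Of 17 genes of the DNA sensing route, 14 were matched and 13 passed the filter. With LPS, 9 rose and 2 fell, and with fatty acid before LPS 11 rose and none fell, with a median log2 change of 1.16 beside 0.06 for all genes. Ifi205 went from 0.283 ± 0.0454 to 147 ± 60.4 with LPS, and Ifi211 from 6.47 ± 0.541 to 174 ± 68.6. Casp1, the inflammasome protease, went from 53.5 ± 2.18 to 129 ± 22.3 and then to 197 ± 9.93 with the fatty acid. Ifi207 was at 26.3 ± 7.76 after LPS and 78.5 ± 2.34 after fatty acid and LPS (log2 change 1.58, limma adjusted p = 0.000576). The 2 that fell with LPS, named for that, were Tmem173 (STING, the adaptor of the DNA route), from 11.4 ± 1.15 to 3.78 ± 1.56, and Mb21d1 (cGAS, its DNA sensor), from 1.35 ± 0.138 to 0.782 ± 0.198. With the median-ratio scaling Tmem173 was at -1.07 and still called, and Mb21d1 at -0.19 and not called. These are several genes of 1 family whose reads may be shared, so their count is not that of independent genes.

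Of 8 effectors set off by RNA or Z-form nucleic acid, 7 passed the filter: 3 rose and 3 fell with LPS (4 and 2 with the scaling), and 5 rose and none fell with fatty acid before it. Eif2ak2 (PKR, which halts translation on double-stranded RNA) went from 8.56 ± 0.755 to 19.3 ± 0.808 and to 36.8 ± 0.553 with the fatty acid. Mlkl, which opens the membrane in necroptosis, went from 13.8 ± 0.184 to 42.1 ± 8.55 and 57.7 ± 4.02. Zc3hav1, which binds CpG-rich viral RNA, went from 10.4 ± 0.954 to 19.1 ± 0.794 and 23.6 ± 1.55. Of 11 genes that remove or edit self nucleic acid, 9 passed: 3 rose and 5 fell with LPS, and 1 rose and 3 fell with fatty acid before it. With 47.9% of all genes lower after LPS, 5 of 9 is near the background, and the scaling gave 4 higher and 4 lower. All 3 subunits of ribonuclease H2, which cuts RNA from DNA, fell with LPS, among them Rnaseh2b from 21.2 ± 0.692 to 6.64 ± 2.30. Under the scaling Rnaseh2a and Rnaseh2b were still called and Rnaseh2c was not, at -0.31 (limma adjusted p = 0.101). Rnaset2a, a lysosomal ribonuclease, rose from 70.7 ± 2.79 to 346 ± 11.9 and was lower, at 257 ± 21.5, with the fatty acid. No gene of the 4 lists passed with TAK242 against fatty acid and LPS, where 4.69% of all genes were called. Against LPS alone, fatty acid with TAK242 raised 3 of the DNA route and 2 effectors, and lowered Rnaset2a. In that comparison 5.89% of all genes were called in either direction.

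**Figure D3:**
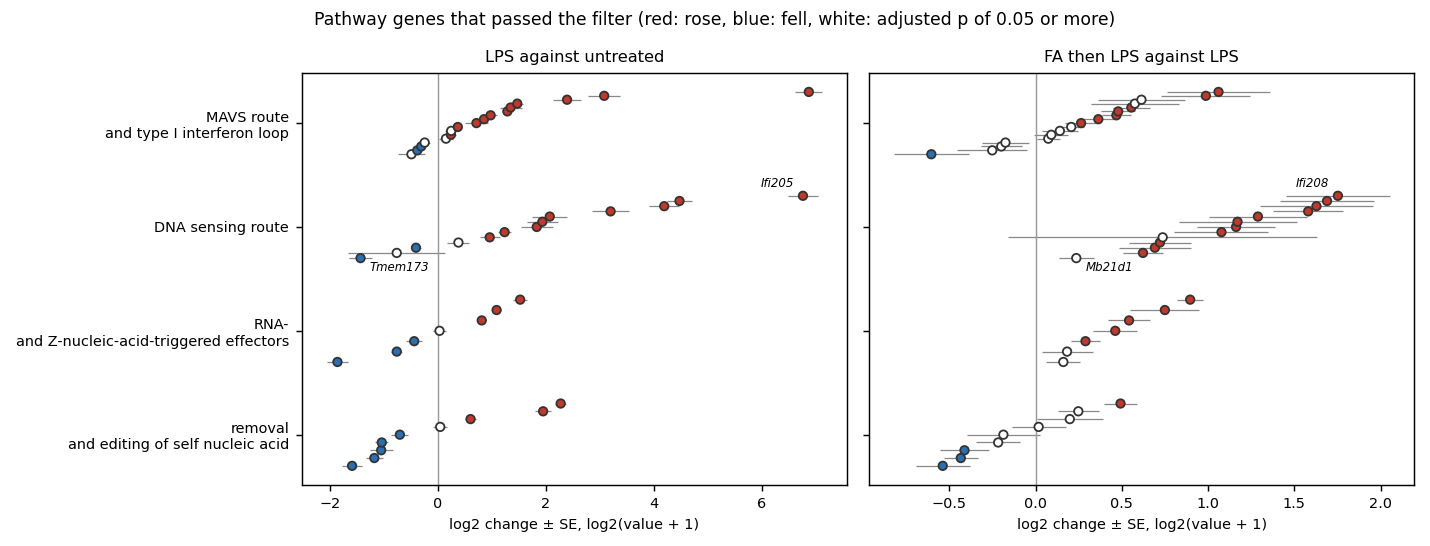
Log2 change with its standard error for the genes of 4 lists that passed the filter, 3 libraries against 3, with the lowest and highest gene of the DNA sensing route named. With LPS (left) the DNA sensing route runs from Tmem173 at -1.43 to Ifi205 at 6.77, and with fatty acid before LPS (right) 11 of its 13 genes rose.

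Markers of other cell types moved in the same comparisons. Summed neutrophil markers were 33.0 to 48.2 in the untreated libraries, 116 to 383 after LPS, 78.0 to 87.9 after fatty acid and LPS and 63.0 to 85.8 with TAK242, and 2 of 4 tested rose with LPS and 2 fell with the fatty acid. Summed stromal markers were 8.12 to 16.4, 25.8 to 56.2, 9.74 to 12.9 and 21.1 to 25.5 in the same order, and 5 of 5 tested rose with LPS and 4 fell with the fatty acid. Of the 5 tested stromal markers, 2 rose with TAK242. Cd79b, the 1 B cell marker tested, was at 1.96 to 2.54 in the untreated libraries, 0.0177 to 0.348 after LPS, 1.95 to 2.57 after fatty acid and LPS and 0.549 to 0.918 with TAK242, and was called lower, higher and lower in turn. Macrophage markers summed to between 8726 and 10781 over these groups, and of 7 tested 4 rose and 1 fell with LPS, 5 rose and 2 fell with the fatty acid, and none passed with TAK242. The part of other cells in the members' changes was not tested, and in bulk RNA fewer cells of a type and less RNA per cell cannot be told apart.

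Over the 12 libraries of the fatty acid table, the genes whose log2 values ran most like a member's were described by Pearson's r, with no test, since the libraries share groups and treatments. For Ddx58 these were AW112010, Phf11d and Cxcl10, all at r = 0.999. For Zbp1 they were Oas1g (0.998), Irf7 (0.998) and Isg15 (0.998), and for Samhd1 Ifit2 (0.992), Heatr9 (0.989) and Clec4a3 (0.989). Mavs ran most like Cfap45 (0.990), Cyp4f17 (0.982) and Ncbp3 (0.974). Aim2 and Adar had no gene as close: Usp38 (0.917), Gnaq (0.914) and Tnks (0.905) for Aim2, and Rnpep (0.923), BC028528 (0.889) and Dhrs13os (0.867) for Adar.

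In the Western diet table the members were high in 3 libraries, those labelled Western diet control 1 and 3 and Western diet with LPS 3, the same 3 in which Ccl5 was high. Ddx58 was at 7.42, 5.67 and 6.82 in the chow libraries, at 108, 7.87 and 97.1 under the Western diet control label and at 3.77, 5.19 and 77.8 under the Western diet LPS label. Zbp1 was at 1.61, 2.28 and 1.10, then 223, 1.58 and 219.7, then 3.19, 4.52 and 189. Ifih1 was at 3.10, 2.43 and 3.43, then 43.0, 3.69 and 66.3, then 1.97, 1.75 and 27.1. Each of these genes had a library near the chow level and libraries far above it under the same label.

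Dhx58, Ifi204, Samhd1 and Adar followed the same libraries. Dhx58 was at 83.9 and 78.1 in control libraries 1 and 3 and 71.5 in LPS library 3, and between 6.58 and 11.5 in the other 6. Ifi204 was at 184, 412 and 226 in those 3 and between 4.90 and 10.4 in the rest. Samhd1 was at 364, 246 and 266 against 34.3 to 45.5, and Adar at 44.4, 47.6 and 32.9 against 3.32 to 10.6. Mavs ran low in the same libraries, at 4.70, 4.18 and 6.17, beside 6.62 to 7.91 in the others. Aim2 was less split: 10.4, 10.6 and 9.23 in chow, 15.8, 10.3 and 19.0 under the control label and 12.7, 6.64 and 8.59 under the LPS label. Trex1 was at 25.3, 26.9 and 16.1 in the 3 libraries and at most 3.52 in the others except chow replicate 5, at 53.9, a second untreated chow library with a high Trex1 value beside replicate 3 of the other table.

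**Figure D4:**
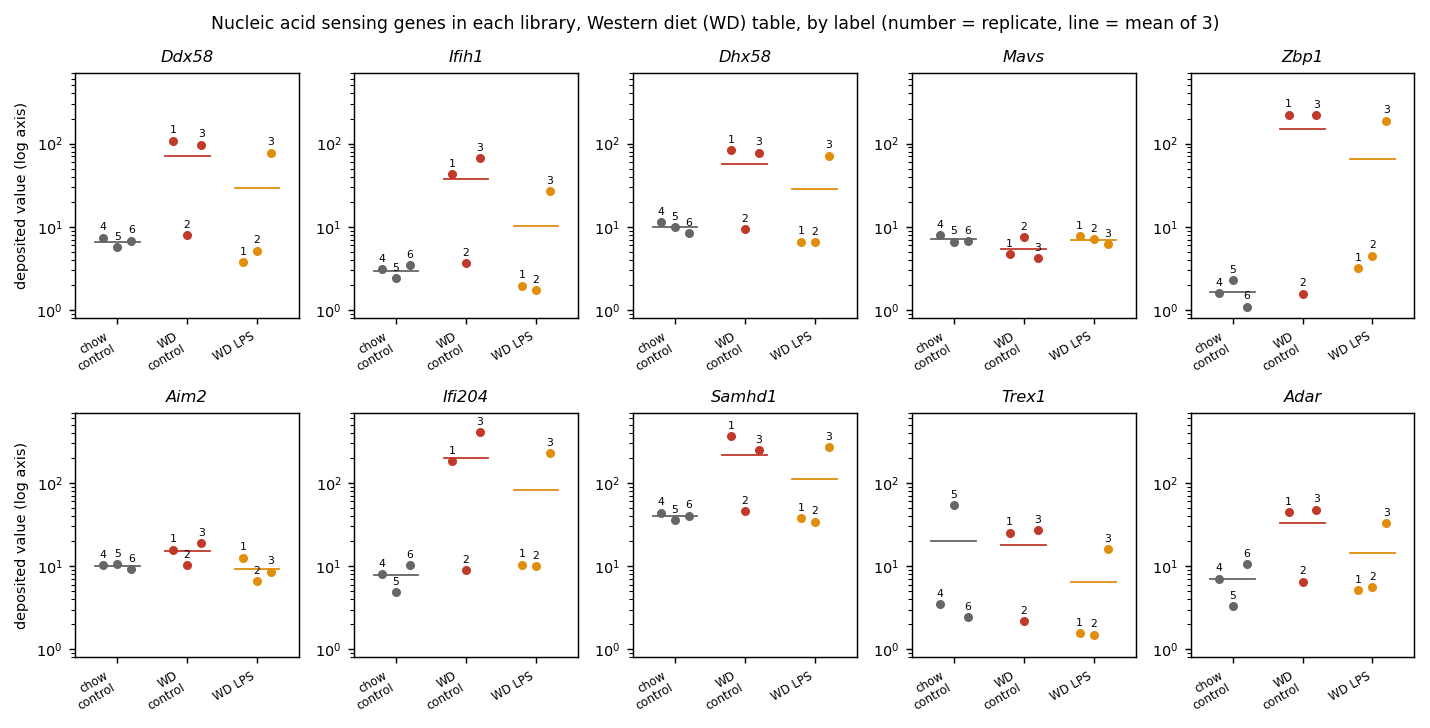
Deposited value of each of the 10 genes (log axis) in the 9 libraries of the Western diet table, by label, with points numbered by replicate and a line at the mean of 3. Under the label Western diet control, replicate 2 stands near the chow libraries (Ddx58 at 7.87) and replicates 1 and 3 far above, while under the LPS label replicate 3 alone stands high (Ddx58 at 77.8).

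By label, no member passed in any of the 3 comparisons of this table, and no member had an unadjusted limma p under 0.05, where 27.3%, 17.2% and 12.6% of all genes did. The share of all 10331 genes called was 0.232% for Western diet control against chow, 0.958% for Western diet with LPS against Western diet control and 1.39% for Western diet with LPS against chow. For Ddx58 the 3 log2 changes were 2.59 ± 1.23, -1.79 ± 1.23 and 0.80 ± 1.23, and for Zbp1 4.26 ± 1.95, -1.62 ± 1.95 and 2.64 ± 1.95. Leaving out the library labelled Western diet control 2 gave 9 members past the threshold in the first comparison. Among them were Zbp1 at 6.40 and Mavs at -0.57, and 1248 of all 10331 genes were called higher and 4590 lower. The median log2 change of all genes in that fit was -0.50, near that of Mavs. The same omission gave 3 members (Ifih1, Mavs and Aim2) in the second comparison, where 3082 of all genes were called higher and 1004 lower. A fit without the 4 libraries whose Ccl5 went against the label leaves 1 library under each Western diet label, so its calls are not counted here. Those 4 were picked on a gene of the same response, so that fit describes the libraries and supports no direction. Summed macrophage markers ran from 5793 to 15382 within the Western diet control label, a wider range than the 10176 to 11993 of the chow libraries, and summed neutrophil markers from 25.1 to 70.4 against 33.3 to 52.8. Summed stromal markers were 4.27 to 8.08 under that label and 0.230 to 1.23 in the chow libraries. Their part in the members' values was not tested.

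The LPS change under the Western diet labels was set against that in chow-fed cells by the difference of the 2 log2 changes, over 10019 genes tested in both tables. Of all genes, 32.1% were called higher and 10.7% lower. Mavs was called higher, at 0.89 ± 0.23 (t test of the difference, adjusted p = 0.0133). Ddx58, Ifih1, Dhx58, Zbp1 and Samhd1 were called lower, from -2.69 for Samhd1 to -7.52 for Zbp1. The tables may not share a normalization, so they were fitted separately and each change was taken within its own table. Ccl5 went against the LPS label in 4 of the 6 Western diet libraries. Without those 4, which leaves 1 library under each Western diet label and supports no direction, the difference for Samhd1 was 1.01. Ddx58, Ifih1, Dhx58 and Zbp1 had smaller differences in that fit, listed in the closing paragraph.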

How the data were processed

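The authors deposited 1 table of values per gene and library for the fatty acid experiment (12 libraries) and 1 for the Western diet experiment (9 libraries). The submitters' processing notes name CASAVA 1.8.2, FastQC 0.11.5, Trim Galore 0.4.1, HISAT2 2.0.5 and the builds mm10 and mm9. The counting tool and the unit of the deposited values are not given in the sources used here. All 10 members' coordinates equal those of GENCODE M21 on GRCm38 (mm10), which the text uses. Entries whose position did not read as 1 chromosome with a start and an end were left out (17 identifiers in the first table, 18 in the second).

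Genes at 1 or more in at least 3 libraries of a table were tested on log2(value + 1) with limma 3.58.1 in R 4.3.3, with a mean-dependent prior, all libraries of a table sharing 1 estimate of the spread, and Benjamini-Hochberg adjustment over all genes tested (threshold 0.05). Tables were fitted separately. The text names all 10 members, up to 4 genes of each pathway list by the smallest adjusted p (a few of these genes are not reported here), and the 3 genes most like each of 6 members by Pearson's r. Alternatives were another pseudocount (0.1), filters (none, a minimum of 5), median-ratio scaling, fits of the compared libraries alone, the replicate number as a block, and each library left out. The scaling of the pathway lists was added after seeing the data. The fit was tested on simulated data. The members and lists were chosen with earlier results of these data known. Same-numbered libraries of the fatty acid table did not deviate together (correlations from -0.08 to 0.20), so the numbers were not taken as pairs.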

Additional observations from a re-analysis of the deposited data

Results flagged for a closer look

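For 6 members the LPS change under the Western diet labels differed from that in chow-fed cells by the test of the difference itself. In that test 32.1% of all genes were called higher and 10.7% lower. The difference in log2 change was -4.91 for Ddx58 (-1.79 by Western diet label and 3.13 in chow), -4.46 for Ifih1 (-1.97 and 2.49) and -3.96 for Dhx58 (-1.35 and 2.61). It was -7.52 for Zbp1 (-1.62 and 5.90), -2.69 for Samhd1 (-1.17 and 1.52) and 0.89 for Mavs (0.34 and -0.55). In the same libraries Ccl5 went against 4 of the 6 LPS labels, and no member passed with any 1 of those 4 libraries left out. Whether the labels or the diet set these differences was not tested. Groups of 3 libraries are too small for a check on single outlying samples.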

How the results depend on the processing

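In the LPS comparison 118 of 120 alternative values for the members kept their direction and side of the threshold, 112 of 120 for fatty acid before LPS, 115 for TAK242, 114 for fatty acid with TAK242 against LPS, and 113 and 116 for the 2 comparisons of pretreated with untreated cells. By Western diet label 102 of 120, 118 of 130 and 101 of 120 did so, and for the LPS change by diet label, the least stable, 111 of 160, with 30 that missed the threshold and 11 that changed sign. With 1 library left out, the members past the threshold ranged from 8 to 9 for LPS, 6 to 8 for fatty acid, 0 to 0 for TAK242, 0 to 3 for fatty acid with TAK242 against LPS, 6 to 8 and 8 to 9 against untreated, 0 to 9, 0 to 3 and 0 to 0 for the 3 comparisons by Western diet label, and 0 to 9 for the LPS change by diet label. With TAK242, 1 member (Samhd1) passed in the fit of 6 libraries. Median-ratio scaling turned Mavs to 0.12 for fatty acid then LPS against untreated, 0.00099 for Western diet control against chow and 0.14 for Western diet with LPS against chow, and Aim2 to 0.16 for fatty acid, TAK242, then LPS against untreated and 0.024 for Western diet with LPS against chow. The scaling moved the median of all genes from -0.32 to 0.01 and from 0.16 to -0.02 for the first 2 Western diet comparisons. For the LPS change by diet label it moved that median from 0.48 to -0.06. Mavs then missed the threshold there at 0.32 (t test of the difference, adjusted p = 0.0948). The replicate block changed no member's call: LPS gave 8 and fatty acid 7 members with it. In the Western diet table the numbers 1, 2 and 3 had correlations of -0.67, 0.68 and 0.76, which do not pair the libraries.

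Uncalled members also changed sign with 1 library left out. For TAK242 the ranges were -0.26 to 0.14 for Ifi204, -0.25 to 0.0080 for Trex1 and -0.15 to 0.69 for Adar. For fatty acid before LPS Trex1 ranged from -1.56 to 0.29. For fatty acid with TAK242 against LPS Trex1 ranged from -1.70 to 0.15 and Zbp1 from -0.030 to 0.37, and against untreated Aim2 from -0.25 to 0.022. By Western diet label, Trex1 ranged from -0.25 to 1.75 for control against chow. For Western diet with LPS against chow the ranges were -0.48 to 1.54 for Ddx58, -0.47 to 1.20 for Ifih1, -0.52 to 1.11 for Dhx58, -0.080 to 0.065 for Mavs, -0.37 to 0.053 for Aim2, -0.14 to 1.32 for Samhd1, -1.90 to 0.28 for Trex1 and -0.22 to 1.01 for Adar. Aim2 ranged from -0.38 to 0.050 for the LPS change by diet label.

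Leaving out the 4 libraries whose Ccl5 went against the label, an alternative chosen after seeing the data, assumes that the lone library left under each Western diet label varies like the others. Those 4 were picked on a gene of the same response, so the values below describe the libraries and support no direction. For Western diet control against chow it turned Dhx58 to -0.058, Mavs to 0.074, Zbp1 to -0.024 and Trex1 to -1.57. For Western diet with LPS against Western diet control, Ddx58 was at 3.15, Ifih1 at 2.58, Dhx58 at 2.79 and Mavs at -0.25. In the same comparison Zbp1 was at 6.20, Ifi204 at 4.50, Samhd1 at 2.52, Trex1 at 2.43 and Adar at 2.18. For Western diet with LPS against chow, Trex1 turned to 0.85. For the LPS change by diet label, Ddx58 was at 0.025, Ifih1 at 0.093, Dhx58 at 0.18, Zbp1 at 0.30 and Aim2 at 0.26. For the same change, Ifi204 was at 1.82, Samhd1 at 1.01, Trex1 at 0.42 and Adar at 1.48. The read depth behind the values is unknown, so no counting error or detection floor can be given.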
